A study of Mus musculus with 9 samples.

Results

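The 44 genes described here encode cyclins, cyclin-dependent kinases (CDKs), E2F and retinoblastoma (RB) family proteins, replication licensing factors, enzymes of nucleotide supply and proteins of mitosis. They were taken by symbol from a fixed list, and all 44 were found among the 47729 genes of the RNA-Seq tables. The measurements came from whole lenses of newborn (P0) mice of 3 lines with 3 pools each, and every pool, a biological replicate by its label, held 6 lenses from 3 mice. The lines were non-transgenic *FVB/N* mice, hemizygous *P0-3.9GFPCre* mice and hemizygous *Le-Cre* mice, and both transgenic lines were kept on the *FVB/N* background. *P0-3.9GFPCre* expresses a GFP-CRE fusion and *Le-Cre* expresses a nuclear CRE with GFP from the same transcript, each under *Pax6* P0 promoter sequence. Both transgenes are active in the lens placode and later in the lens epithelium. The study also reports earlier CRE expression in the pancreas of both lines. In *P0-3.9GFPCre* embryos it reports mosaic CRE activity through much of the body before the placode forms. The labels name no floxed allele for these mice, each transgene is represented by 1 line, and CRE transcripts were not analysed here.

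Cyclins are made and destroyed in sequence, and each activates CDKs that carry the cell into the next phase of its cycle. D-type cyclins with CDK4 or CDK6 and cyclin E with CDK2 phosphorylate RB, which releases E2F factors to transcribe the genes for DNA replication. Cyclin A and cyclin B with CDK1 then drive G2 and mitosis. The genes of these phases are controlled by the DREAM complex and are transcribed late in the cycle under B-MYB and FOXM1. In the lens, the cells that divide lie in the anterior epithelium, mostly near its edge, whereas fiber cells leave the cycle as they elongate, a step in which RB and the CDK inhibitor p57 (*Cdkn1c*) take part. In whole lenses, fewer cycling cells and less RNA of these genes per cell cannot be told apart.

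Total expected counts, the reads that RSEM assigns to genes, lay between 20670968 and 28098059 per pool, and crystallin genes held 39.1% to 43.0% of them. The 44 genes together held 0.126% to 0.137% of the counts in the *FVB/N* pools, 0.133% to 0.147% in the *P0-3.9GFPCre* pools and 0.140% to 0.151% in the *Le-Cre* pools. The lowest expected count of any of the 44 genes in any pool was 32, and all 44 passed the filter on low counts. Within a gene the unit is CPM, the count relative to the TMM-adjusted library size, and levels are compared between genes as TPM, which RSEM also scales for transcript length. The 6 lens epithelium markers and the 9 lens fiber markers were at or above 1 CPM in every line. Erythroid, endothelial and mesenchymal markers were present as well, whereas none of 5 markers of the corneal surface reached 1 CPM in any line.

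Some promoters of these genes hold sequences through which E2F and late cell cycle factors are known to act. Here 4 promoters are shown because they belong to genes on which the results below turn or to the role group richest in E2F motifs. Each is the 120 bases that end before both the RefSeq start site and the annotated gene, 5′ to 3′ on the gene's strand, from RefSeq on GRCm38.p6. Capitals mark an E2F motif (TTTCCCGC, TTTCGCGC, TTTGCCGC or TTTGGCGC), a CCAAT box or the cell cycle homology region (CHR, TTTGAA), each searched on both strands. The stretch for *Cdk1* is chr10:69352939-69353058 on the minus strand and holds all 3 motifs, that for *Mcm6* is chr1:128359706-128359825 on the minus strand and holds E2F motifs of which the first 2 overlap by 4 bases, that for *Top2a* is chr11:99024190-99024309 on the minus strand, and that for *Aurka* is chr2:172370571-172370690 on the minus strand.
Cdk1: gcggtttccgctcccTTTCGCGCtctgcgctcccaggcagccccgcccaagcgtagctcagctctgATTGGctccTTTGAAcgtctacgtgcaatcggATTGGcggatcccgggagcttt
Mcm6: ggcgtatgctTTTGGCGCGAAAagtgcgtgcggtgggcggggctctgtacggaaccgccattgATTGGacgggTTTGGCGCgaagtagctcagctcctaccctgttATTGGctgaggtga
Top2a: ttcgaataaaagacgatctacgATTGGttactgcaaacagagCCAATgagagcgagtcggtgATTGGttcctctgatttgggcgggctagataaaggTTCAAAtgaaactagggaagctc
Aurka: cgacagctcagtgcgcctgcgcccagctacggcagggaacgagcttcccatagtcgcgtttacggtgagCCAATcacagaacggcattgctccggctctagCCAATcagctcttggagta

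RefSeq promoter windows of 300 bases, 250 before and 50 after the start site, were found for 35 of the 44 genes. An E2F motif was present in 11 of these 35 genes (31.4%), against 2.61% of the 27025 genes with a window. The licensing and replication fork genes held most of them, with 6 of 8, whereas 0 of 9 genes of the mitotic machinery had these letters in the window. A CCAAT box was found in 25 of 35 genes (71.4%) against 41.1% of all genes, among them 5 of 5 genes of G2/M control and 8 of 9 genes of the mitotic machinery. The CHR letters were found in 14 of 35 genes (40.0%) against 20.2% of all genes, again mostly in G2/M control (4 of 5) and the mitotic machinery (6 of 9). These are matches of letters and not measured binding sites.

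*Cdk4*, *Ccnd3* and *Ccnd2* were the most abundant of the 44 transcripts in the newborn lens, while *Cdk6* and *E2f2* were the least abundant in *FVB/N*. In *FVB/N* lenses, *Cdk4*, the catalytic partner of the D-type cyclins, had 136, 135 and 138 TPM in the 3 pools, the highest level of the 44 genes. *Cdk4* was followed by *Ccnd3* (113 ± 18.03 TPM, SD, n = 3), *Ccnd2* (63.8 ± 6.39), *Top2a* (36.5 ± 0.550), *Ccnd1* (34.0 ± 3.12), *Pcna* (28.1 ± 0.778) and *Cdk1* (21.9 ± 1.48). These 7 genes exceeded 20 TPM, 22 genes lay between 5 and 20 TPM and 15 genes were under 5 TPM, with a median of 5.86 TPM. Of the 43 neighbouring pairs in this order, the pools did not overlap in 7, which were the pairs among *Cdk4*, *Ccnd3*, *Ccnd2* and *Top2a*, the pairs from *Ccnd1* through *Pcna* and *Cdk1* to *Mcm7*, and *Cdk6* above *E2f2*. Between *Top2a* and *Ccnd1*, and from *Mcm7* down to *Cdk6*, neighbours did not differ beyond the spread between pools. The lowest level was that of *E2f2*, at 0.690, 0.480 and 1.1 TPM.

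**Figure D1:**
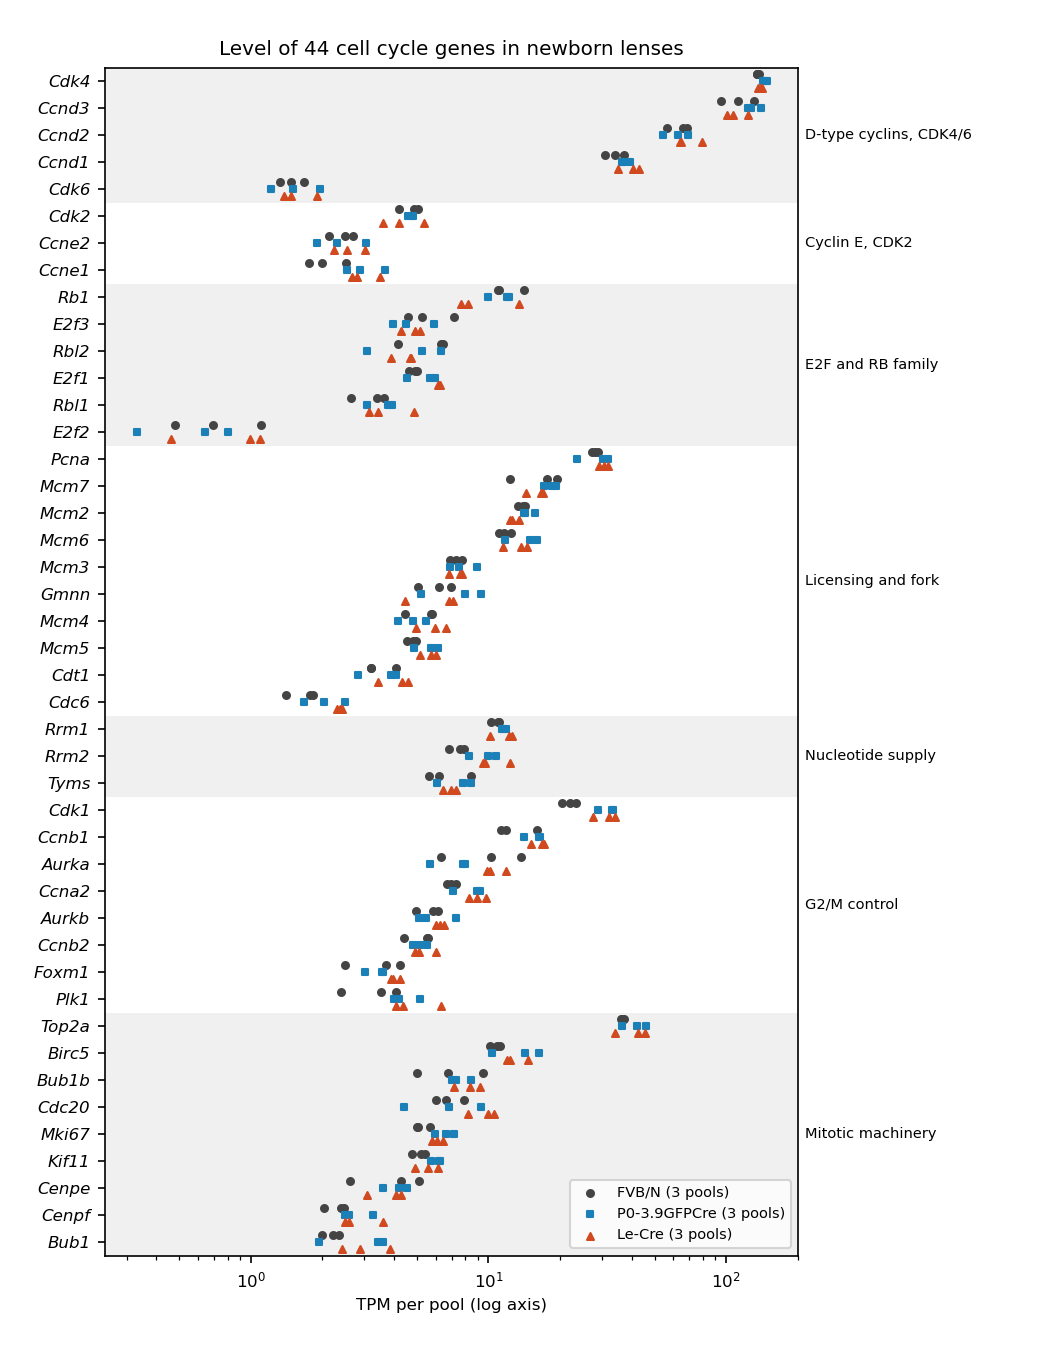
TPM of the 44 genes in each of the 9 pools on a log axis, grouped by role and ordered within a role by the mean in FVB/N; circles are FVB/N, squares P0-3.9GFPCre and triangles Le-Cre pools. Cdk4 lies highest, near 136 TPM in FVB/N, and E2f2 lowest, at 0.480 to 1.1 TPM, while the pools of the 3 lines mostly fall together for each gene.

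The share of each paralog in its family was uneven, and in some families it differed between the lines. *Cdk4* made up 98.9% of the summed TPM of *Cdk4* and *Cdk6* in each line. Among the D-type cyclins, *Ccnd3* held 53.4% in *FVB/N*, 56.7% in *P0-3.9GFPCre* and 50.4% in *Le-Cre*, and *Ccnd1* held the least, at 16.2% to 18.1%. *Ccnb1* held 71.2% to 75.3% of the B-type cyclins, and *Rb1* held 53.3% to 57.6% of the pocket proteins. *E2f2* held 5.6% to 7.1% of the 3 activator E2Fs, and the order of *E2f1* and *E2f3* by mean share differed between lines. *E2f3* held 49.9% and *E2f1* 43.3% in *FVB/N*, whereas *E2f1* held 50.1% and 52.5% and *E2f3* 44.3% and 40.4% in *P0-3.9GFPCre* and *Le-Cre*. The ranges of these shares over the pools overlapped in *FVB/N* and in *P0-3.9GFPCre*, so their order stood beyond the spread only in *Le-Cre*. The *E2f1* share was 37.8% to 46.8% in the *FVB/N* pools, 47.6% to 53.0% in *P0-3.9GFPCre* and 49.8% to 54.2% in *Le-Cre*. Neither Cre line overlapped *FVB/N* in this share. *Rrm1* held 57.3% to 61.6% of the summed TPM of *Rrm1* and *Rrm2* in the *FVB/N* pools and 50.4% to 56.3% in the *Le-Cre* pools, again without overlap. The shares of *Ccnd1* and *Rbl1* (higher in *Le-Cre*) and of *E2f3* and *Mcm2* (lower) did not overlap between these lines either. How often shares separate in other gene families was not tested. The E-type cyclins were near even, with *Ccne1* at 46.1% in *FVB/N*, 55.7% in *P0-3.9GFPCre* and 53.5% in *Le-Cre*. The 6 *Mcm* genes, whose products form a helicase with a single copy of each subunit, differed between 2.52 and 4.33 times from the highest to the lowest in a pool. *Mcm7*, the highest of them, shares 22.8% of its 51-base sequences with other genes, *Ccnb1* shares 23.2% and *Ccnd1* 21.5%, so the levels of these 3 genes depend on how RSEM divided such reads. Across all 44 genes, 19 shared under 1% and 14 shared over 5%.

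A gene was called when it differed by 1.5-fold or more and its adjusted p did not exceed 0.05. Relative to *FVB/N*, 0 of the 44 genes met this cutoff in *Le-Cre* lenses by edgeR's quasi-likelihood test, where 10 of the 15557 genes tested (0.0643%) did. DESeq2's Wald test called 0 of the 44 as well, and the smallest adjusted p by edgeR was 0.236. The differences were small and mostly of the same sign. In *Le-Cre* lenses 35 of the 44 log2 fold changes were positive, against 7628 of all 15557 genes tested. Their median was 0.17 (all tested genes −0.004) and their range from −0.13 to 0.59. At an unadjusted p under 0.05, 11 genes were higher, or 1 in every 4 of the list, against 3.6% of all genes tested, and 0 were lower, against 4.35%. All 3 *Le-Cre* pools lay above all 3 *FVB/N* pools for 12 genes (background 6.46%) and below them for 0 (background 7.03%). The number of higher genes at an unadjusted p under 0.05 was 4 without *FVB/N* replicate 2, 17 without *FVB/N* replicate 3 and 3 with the share of Y-linked transcripts in the model. The share over all genes tested was not taken in these other fits, so these counts have no background. For 32 of the 44 genes the 95% interval of the fold change lay within 1.5-fold in either direction.

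In *P0-3.9GFPCre* lenses, which were compared with the same *FVB/N* pools, 0 of the 44 genes passed the cutoff by edgeR, as did 0 of all genes tested (0%). DESeq2 gave an adjusted p for 5 of the 44 genes here, none of them called, and left it NA for the other 39, *Cdk1* and *Aurka* among them. Here 30 of the 44 log2 fold changes were positive, against 7780 of all 15557 genes tested. Their median was 0.11 (all tested genes 0.00), with a range from −0.53 to 0.46 and a smallest adjusted p of 0.590 by edgeR. At an unadjusted p under 0.05, *Cdk1* and *Mki67* were higher (2 of 44, background 3.41%) and *Aurka* was lower (1 of 44, background 3.41%). Pools did not overlap for *Cdk1* and *Cdk4*, both higher (2 of 44, background 6.02%), and 0 genes were below without overlap (background 5.94%). These counts of members were near the background. The number of higher genes at an unadjusted p under 0.05 was 11 when *FVB/N* replicate 3 was left out, 12 when *P0-3.9GFPCre* replicate 2 was, 4 when *Le-Cre* replicate 3 was and 1 when *FVB/N* replicate 2 was. The number of lower genes was 2 without *FVB/N* replicate 2 and 0 without *FVB/N* replicate 1 or 3, *P0-3.9GFPCre* replicate 2 or 3, or *Le-Cre* replicate 2 or 3. No background over all genes was taken for the fits that left out a pool. The 95% interval lay within 1.5-fold for 34 genes.

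**Figure D2:**
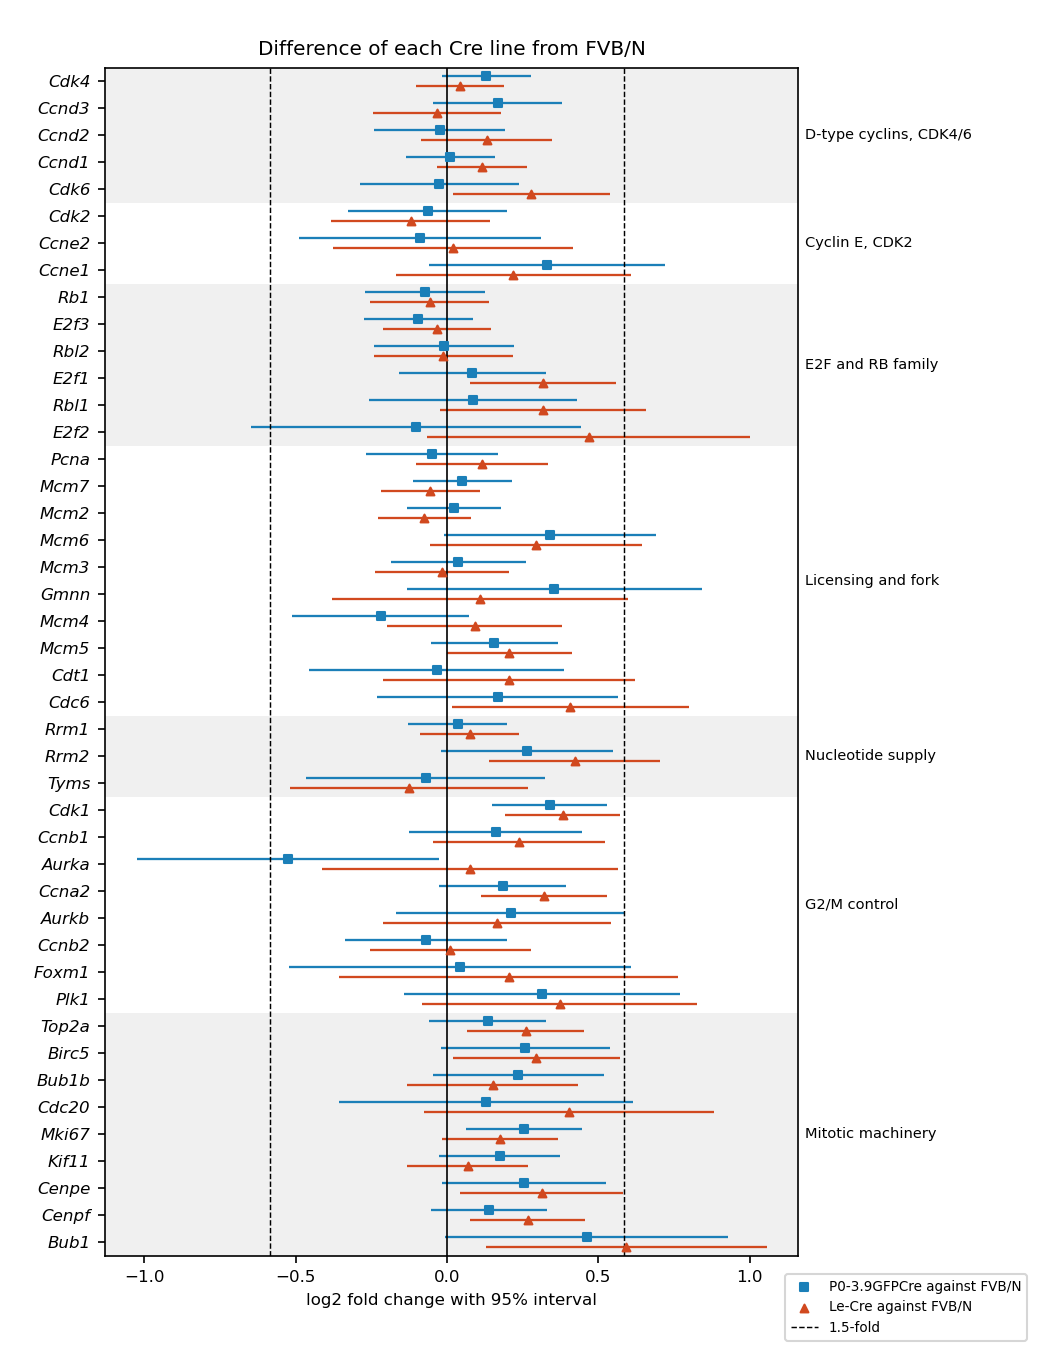
Log2 fold change of each of the 44 genes with its 95% interval, P0-3.9GFPCre (squares) and Le-Cre (triangles) against the same FVB/N pools; dashed lines mark 1.5-fold. In Le-Cre 35 of 44 points lie above 0 and in P0-3.9GFPCre 30, and 12 and 10 intervals reach the dashed lines.

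The 5 genes of the cyclin D step were close to each other in the 3 lines. *Cdk4* had 134, 124 and 138 CPM in the *FVB/N* pools, 141, 148 and 144 in the *P0-3.9GFPCre* pools and 139, 126 and 143 in the *Le-Cre* pools. The *P0-3.9GFPCre* pools lay above the *FVB/N* pools, by a log2 fold change of 0.13 (SE 0.07, adjusted p = 0.763 by edgeR), and *Le-Cre* overlapped both lines. *Cdk4* shares 17.0% of its 51-base sequences with other genes, mainly *Tspan31*, which lies on the opposite strand and had 38.6 CPM, and the library kit does not mark strand. *Cdk6*, the less abundant kinase, had 12.7, 11.6 and 10.5 CPM in the *FVB/N* pools, 10.9, 10.99 and 12.2 in the *P0-3.9GFPCre* pools and 13.5, 16.1 and 12.5 in the *Le-Cre* pools. The *Le-Cre* pools overlapped those of *FVB/N* but lay above all *P0-3.9GFPCre* pools. The *Le-Cre* log2 fold change was 0.28 against *FVB/N* (SE 0.12, adjusted p = 0.596 by edgeR) and 0.30 against *P0-3.9GFPCre* (SE 0.12, adjusted p = 0.544). The log2 fold changes of *Ccnd1*, *Ccnd2* and *Ccnd3* lay between −0.03 and 0.17 in both Cre lines against *FVB/N*.

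Cyclin E with CDK2 acts after cyclin D at the entry into S phase, and the pools of these genes overlapped in every comparison. *Ccne1* had 4.65, 3.18 and 3.85 CPM in the *FVB/N* pools, 4.85, 5.28 and 4.57 in the *P0-3.9GFPCre* pools and 5.08, 4.44 and 4.07 in the *Le-Cre* pools. The pools of each Cre line overlapped those of *FVB/N*, and the log2 fold changes were 0.33 in *P0-3.9GFPCre* (SE 0.18, adjusted p = 0.769 by edgeR) and 0.22 in *Le-Cre* (SE 0.18, adjusted p = 0.820). *Cdk2* had 10.9, 10.5 and 9.53 CPM in the *FVB/N* pools, 9.903, 9.58 and 10.1 in the *P0-3.9GFPCre* pools and 9.31, 10.9 and 8.18 in the *Le-Cre* pools, and the 3 lines overlapped. Its log2 fold change was −0.12 in *Le-Cre* (SE 0.12, adjusted p = 0.858 by edgeR). *Ccne2*, which shares 14.3% of its 51-base sequences mainly with *Ints8*, had log2 fold changes of 0.02 in *Le-Cre* and −0.09 in *P0-3.9GFPCre*.

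Among the E2F and RB genes, *E2f1* and *E2f2*, which encode activators of S phase genes, were higher in every *Le-Cre* pool than in any pool of the other lines. *E2f1* had 12.5, 11.6 and 13.3 CPM in the *FVB/N* pools, 14.2, 11.2 and 14.1 in the *P0-3.9GFPCre* pools and 15.6, 14.5 and 16.4 in the *Le-Cre* pools. The *Le-Cre* log2 fold change was 0.32 against *FVB/N* (SE 0.11, adjusted p = 0.495 by edgeR) and 0.23 against *P0-3.9GFPCre* (SE 0.11, adjusted p = 0.656). *E2f2* had 1.55, 1.504 and 1.8 CPM in the *FVB/N* pools, 1.44, 1.65 and 1.44 in the *P0-3.9GFPCre* pools and 2.03, 2.26 and 2.44 in the *Le-Cre* pools, so that its low counts also stood apart. The log2 fold change was 0.47 against *FVB/N* (SE 0.24, adjusted p = 0.699 by edgeR) and 0.57 against *P0-3.9GFPCre* (SE 0.24, adjusted p = 0.604). On the TPM scale, which also rests on RSEM's transcript lengths, the *E2f2* pools of *Le-Cre* (0.460, 1.09 and 0.990) overlapped those of *FVB/N*. *Rb1*, the pocket protein gene that restrains E2F, had 34.2, 34.2 and 34.1 CPM in the *FVB/N* pools, 30.4, 32.6 and 34.5 in the *P0-3.9GFPCre* pools and 30.1, 37.4 and 31.1 in the *Le-Cre* pools, and these pools overlapped. The *Le-Cre* log2 fold change was −0.06 (SE 0.09, adjusted p = 0.926 by edgeR), and 11.9% of its 51-base sequences are shared with other genes, mainly *Rcbtb2* on the opposite strand with 24.1 CPM. Among the other genes of this group, *Rbl1* was at 0.32 in *Le-Cre* and 0.09 in *P0-3.9GFPCre*, and *E2f3* and *Rbl2* lay between −0.09 and −0.01 in both lines.

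The 10 genes that license origins and carry the replication fork gave mixed signs, with 7 positive log2 fold changes in each Cre line against *FVB/N*. *Cdc6*, which loads the MCM helicase onto origins, had 4.53, 4.86 and 5.65 CPM in the *FVB/N* pools, 5.42, 4.31 and 7.13 in the *P0-3.9GFPCre* pools and 6.68, 6.703 and 6.55 in the *Le-Cre* pools. All *Le-Cre* pools exceeded the *FVB/N* pools, whereas the *P0-3.9GFPCre* pools spanned both. The log2 fold change in *Le-Cre* was 0.41 (SE 0.18, adjusted p = 0.611 by edgeR) and in *P0-3.9GFPCre* 0.17 (SE 0.18, adjusted p = 0.889). *Mcm4* had 19.3, 14.7 and 20.01 CPM in the *FVB/N* pools, 17.1, 13.6 and 15.7 in the *P0-3.9GFPCre* pools and 19.8, 20.7 and 17.1 in the *Le-Cre* pools. Its pools overlapped in every comparison, and its log2 fold change was 0.31 in *Le-Cre* against *P0-3.9GFPCre* (SE 0.13, adjusted p = 0.604 by edgeR). *Pcna*, the sliding clamp of DNA polymerases and the most abundant gene of this group, had 36.4, 35.3 and 40.5 CPM in the *FVB/N* pools, 35.6, 31.2 and 41.6 in the *P0-3.9GFPCre* pools and 40.6, 39.9 and 41.1 in the *Le-Cre* pools. These ranges overlapped, with a log2 fold change of 0.11 in *Le-Cre* (SE 0.10, adjusted p = 0.836 by edgeR), and the pseudogene *Pcna-ps2*, with which it shares the 18.9% of its sequences found elsewhere, was at 0 CPM. *Mcm5* and *Mcm6* were above *FVB/N* in every *Le-Cre* pool, with log2 fold changes of 0.21 and 0.29, while *Mcm2*, *Mcm3* and *Mcm7* lay between −0.08 and −0.02 in *Le-Cre*.

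Ribonucleotide reductase makes the deoxynucleotides for replication from a constant large subunit, *Rrm1*, and a small subunit made in S phase, *Rrm2*. *Rrm2* had 15, 13.4 and 16.3 CPM in the *FVB/N* pools, 17.96, 15.1 and 20.5 in the *P0-3.9GFPCre* pools and 18.1, 22.7 and 19.02 in the *Le-Cre* pools. The *Le-Cre* pools did not overlap the *FVB/N* pools, and the log2 fold change was 0.42 (SE 0.13, adjusted p = 0.421 by edgeR), against 0.26 in *P0-3.9GFPCre* (SE 0.13, adjusted p = 0.749). *Rrm1* had 38.3, 40.3 and 43.1 CPM in the *FVB/N* pools, 41.3, 41.6 and 41.7 in the *P0-3.9GFPCre* pools and 45.4, 43.6 and 39.1 in the *Le-Cre* pools. Here the lines overlapped, with a log2 fold change of 0.08 in *Le-Cre* (SE 0.07, adjusted p = 0.858 by edgeR). *Tyms*, thymidylate synthase, was at −0.13 in *Le-Cre* and −0.07 in *P0-3.9GFPCre*.

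In G2/M control, all 8 log2 fold changes were positive in *Le-Cre* lenses, with a median of 0.22, and 6 of 8 in *P0-3.9GFPCre* lenses, with a median of 0.17. *Cdk1*, the kinase of mitotic entry, had the smallest p of the 44 genes in *Le-Cre*. It had 22.2, 21.6 and 25.6 CPM in the *FVB/N* pools, 30.7, 26.7 and 30.2 in the *P0-3.9GFPCre* pools and 30.1, 29.1 and 31.1 in the *Le-Cre* pools, so that every pool of both Cre lines lay above every *FVB/N* pool. Against *FVB/N* the log2 fold change was 0.38 in *Le-Cre*, or 1.303-fold (SE 0.09, 95% interval 0.19 to 0.57, unadjusted p = 0.00105, adjusted p = 0.236 by edgeR). In *P0-3.9GFPCre* it was 0.34, or 1.26-fold (SE 0.09, 95% interval 0.15 to 0.53, unadjusted p = 0.00246, adjusted p = 0.590 by edgeR). The 2 differences share the *FVB/N* pools, and between the Cre lines *Cdk1* differed by 0.04 (95% interval −0.15 to 0.23). None of its 51-base sequences is shared with another gene. As TPM, *Cdk1* was at 21.9 ± 1.48, 31.8 ± 2.61 and 31.3 ± 3.405 (SD, n = 3) in *FVB/N*, *P0-3.9GFPCre* and *Le-Cre*. By DESeq2 the adjusted p in *Le-Cre* was 0.0679, and over all alternatives of the edgeR fit it ranged from 0.0492, without a filter on low counts, to 0.954, with that Y-linked share in the model.

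*Ccna2*, cyclin A2, which acts in S phase and G2, had 18.5, 19.1 and 19.2 CPM in the *FVB/N* pools, 21.9, 18.6 and 23.99 in the *P0-3.9GFPCre* pools and 22.3, 24.5 and 24.1 in the *Le-Cre* pools. The *Le-Cre* pools lay above the *FVB/N* pools by a log2 fold change of 0.32 (SE 0.09, adjusted p = 0.384 by edgeR), and *P0-3.9GFPCre* overlapped *FVB/N* at 0.18 (SE 0.10, adjusted p = 0.763). *Ccna2* shares 11.4% of its 51-base sequences with *Exosc9*, which lies on the opposite strand and had 25.9 CPM. *Aurka*, the Aurora kinase of the spindle poles, went the other way from most of the list in *P0-3.9GFPCre*. It had 16.9, 10.2 and 21.97 CPM in the *FVB/N* pools, 12.6, 9.49 and 11.97 in the *P0-3.9GFPCre* pools and 19.7, 16.1 and 15.95 in the *Le-Cre* pools. The *FVB/N* pools spread over the ranges of both Cre lines, whereas the Cre lines did not overlap each other. The log2 fold change was −0.53 in *P0-3.9GFPCre* against *FVB/N* (SE 0.23, adjusted p = 0.705 by edgeR) −0.26 without *FVB/N* replicate 3 and −0.77 without *FVB/N* replicate 2. It was 0.60 in *Le-Cre* against *P0-3.9GFPCre* (SE 0.23, adjusted p = 0.531 by edgeR), and without a filter on low counts this difference passed the cutoff (adjusted p = 0.0432). In *Le-Cre* against *FVB/N* it was 0.08, with −0.17 without *FVB/N* replicate 2 and −0.03 without *Le-Cre* replicate 1. *Plk1* (0.37 in *Le-Cre* and 0.31 in *P0-3.9GFPCre*), *Ccnb1* (0.24 and 0.16), *Aurkb* (0.17 and 0.21), *Foxm1* (0.20 and 0.04) and *Ccnb2* (0.01 and −0.07) make up the rest of the group.

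The mitotic machinery was the group with the most even sign, since all 9 log2 fold changes were positive in each Cre line, with medians of 0.27 in *Le-Cre* and 0.24 in *P0-3.9GFPCre*. Both medians rest on the same *FVB/N* pools. *Bub1*, a kinase of the spindle checkpoint, had 5.25, 4.38 and 4.87 CPM in the *FVB/N* pools, 7.89, 4.598 and 7.45 in the *P0-3.9GFPCre* pools and 8.07, 8.07 and 5.69 in the *Le-Cre* pools. All *Le-Cre* pools exceeded *FVB/N*, and the log2 fold change of 0.59 (1.51-fold, SE 0.21, adjusted p = 0.513 by edgeR) was the only estimate of the 44 above 1.5-fold in a comparison with *FVB/N*. In *P0-3.9GFPCre* it was 0.46 (SE 0.21, adjusted p = 0.722 by edgeR). *Cenpf*, a kinetochore protein of G2 and mitosis, had 21.3, 22 and 23.8 CPM in the *FVB/N* pools, 25.1, 22.7 and 25.97 in the *P0-3.9GFPCre* pools and 28.5, 24.4 and 27.7 in the *Le-Cre* pools. Its *Le-Cre* pools stood above *FVB/N* by a log2 fold change of 0.27 (SE 0.09, adjusted p = 0.456 by edgeR). *Cenpe*, a kinetochore motor, had 15.5, 15.1 and 18.8 CPM in the *FVB/N* pools, 20.2, 17.7 and 21.1 in the *P0-3.9GFPCre* pools and 18.3, 19.5 and 23.7 in the *Le-Cre* pools. Pools of both Cre lines overlapped the highest *FVB/N* pool, and the log2 fold changes were 0.31 in *Le-Cre* (SE 0.12, adjusted p = 0.575 by edgeR) and 0.25 in *P0-3.9GFPCre* (SE 0.12, adjusted p = 0.741).

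*Birc5*, survivin, a subunit of the chromosomal passenger complex, had 10.9, 10.96 and 11.9 CPM in the *FVB/N* pools, 13.4, 11.04 and 15.9 in the *P0-3.9GFPCre* pools and 13.9, 14.4 and 13.01 in the *Le-Cre* pools. The *Le-Cre* pools lay above *FVB/N* by a log2 fold change of 0.29 (SE 0.13, adjusted p = 0.601 by edgeR). *Top2a*, the topoisomerase that untangles sister chromatids, had 83.2, 76.2 and 86.2 CPM in the *FVB/N* pools, 87.8, 80.2 and 102 in the *P0-3.9GFPCre* pools and 95.1, 103 and 96.03 in the *Le-Cre* pools. Its *Le-Cre* pools did not overlap *FVB/N* either, with a log2 fold change of 0.26 (SE 0.09, adjusted p = 0.480 by edgeR). *Mki67*, which encodes the proliferation marker Ki-67, had 47.8, 46.6 and 56.4 CPM in the *FVB/N* pools, 63.3, 54.8 and 61.7 in the *P0-3.9GFPCre* pools and 54.2, 56.8 and 59.4 in the *Le-Cre* pools. The highest *FVB/N* pool overlapped both Cre lines, and the log2 fold changes were 0.25 in *P0-3.9GFPCre* (SE 0.09, adjusted p = 0.651 by edgeR) and 0.18 in *Le-Cre* (SE 0.09, adjusted p = 0.685). *Cdc20* (0.40 in *Le-Cre* and 0.13 in *P0-3.9GFPCre*), *Bub1b* (0.15 and 0.24) and *Kif11* (0.07 and 0.17) were positive in both lines with intervals that included 0.

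**Figure D3:**
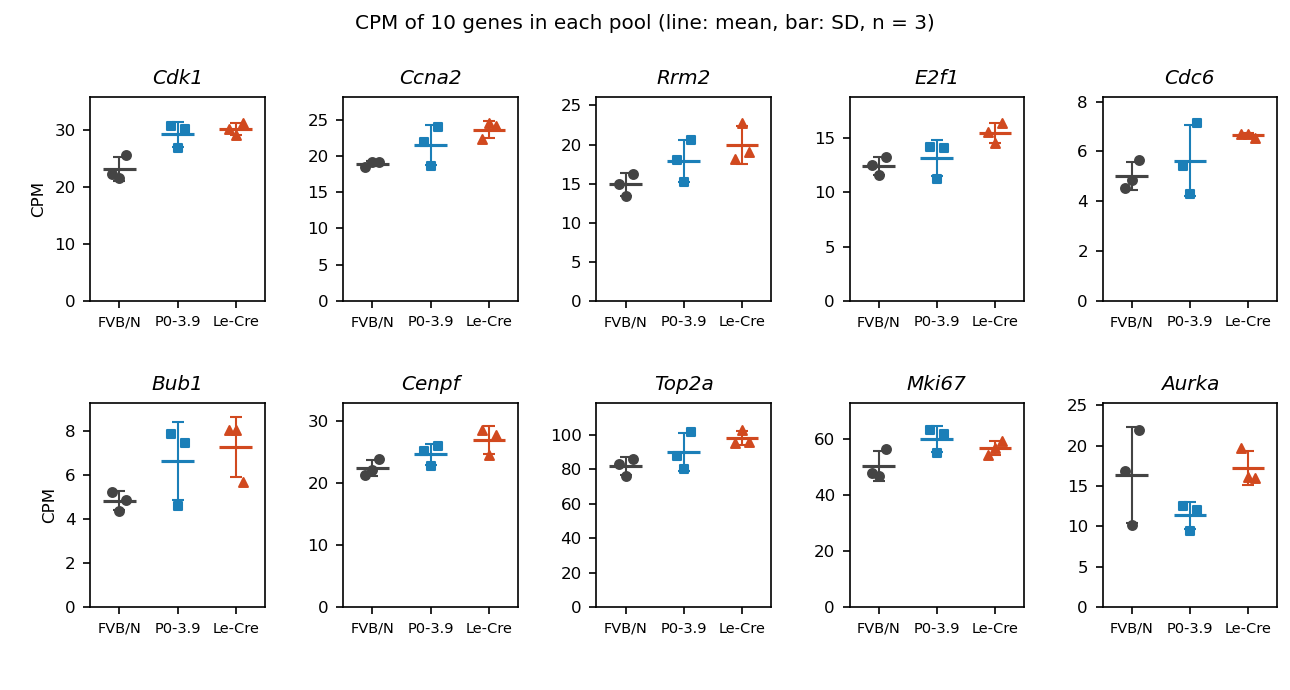
CPM of 10 of the genes in each pool, with the mean as a line and the SD as a bar (n = 3 pools per line). All pools of both Cre lines lie above FVB/N for Cdk1, all Le-Cre pools lie above FVB/N for Ccna2, Rrm2, E2f1, Cdc6, Bub1, Cenpf and Top2a, and Aurka is lower in P0-3.9GFPCre than in Le-Cre with FVB/N spread across both.

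The values were also summed over each role group. The 9 genes of the mitotic machinery summed to 227 ± 17.7 CPM (SD, n = 3) in the *FVB/N* pools, 260 ± 25.4 in the *P0-3.9GFPCre* pools and 267 ± 4.71 in the *Le-Cre* pools, and each *Le-Cre* pool, from 262 CPM upward, lay above the highest *FVB/N* pool at 246 CPM. G2/M control summed to 106 ± 15.8, 114 ± 11.2 and 126 ± 2.08 CPM, and here the lowest *Le-Cre* pool (123.9 CPM) and the highest *FVB/N* pool (123.2 CPM) nearly met. The cyclin E and CDK2 genes summed to 20.8 ± 1.503, 21 ± 1.32 and 20.7 ± 2.46 CPM, and these did not differ beyond the spread between pools. In the same order of lines, the cyclin D group summed to 619 ± 37.8, 642 ± 12.6 and 656 ± 4.71 CPM, and the E2F and RB genes to 93.6 ± 2.34, 91.9 ± 3.38 and 98.2 ± 4.14 CPM. Licensing and fork genes summed to 197 ± 10.2, 203 ± 17.8 and 207 ± 5.53 CPM, and the genes of nucleotide supply to 64.9 ± 5.76, 68.4 ± 3.82 and 71.3 ± 4.58 CPM. All 44 genes summed to 1328 ± 87.2, 1400 ± 67.2 and 1446 ± 14.8 CPM. As TPM, the sum over all 44 genes was 1.099 times that of *FVB/N* in *P0-3.9GFPCre* and 1.08 times in *Le-Cre*, against 1.05 and 1.09 times as CPM.

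**Figure D4:**
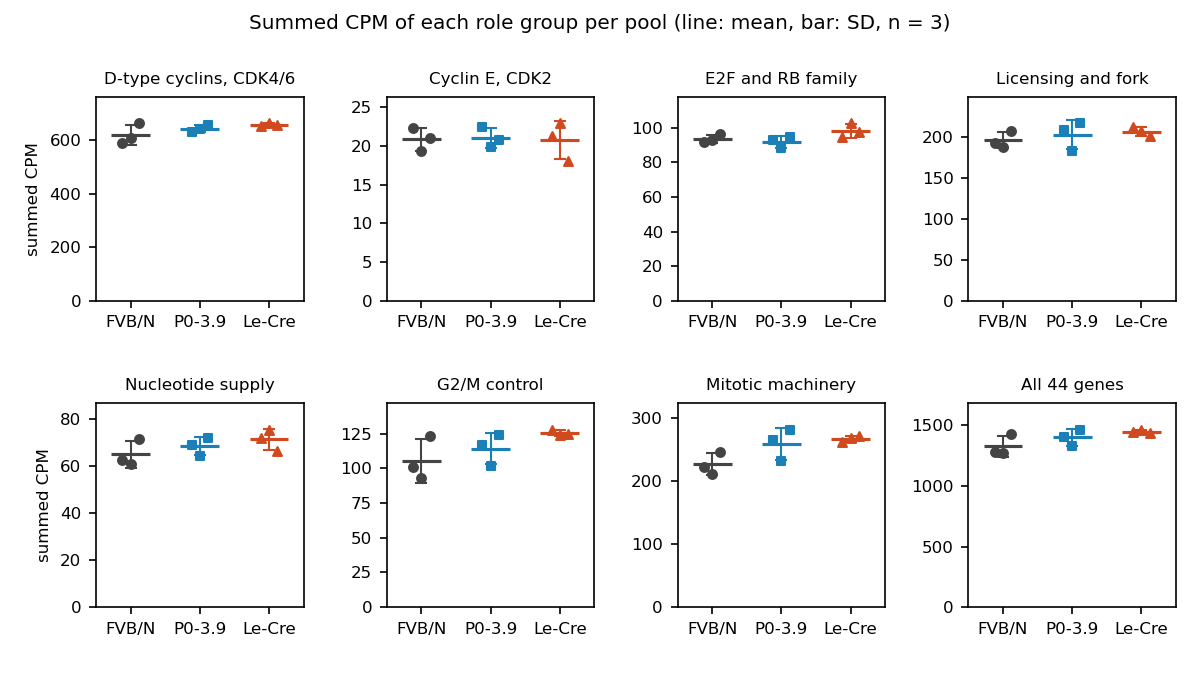
Summed CPM of each role group and of all 44 genes in each pool, with the mean as a line and the SD as a bar (n = 3 pools per line); the axes start at 0. The mitotic machinery sums to 227 CPM in FVB/N, 260 in P0-3.9GFPCre and 267 in Le-Cre, while the cyclin E and CDK2 genes stay near 21 CPM.

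Pools of the same line also differed across the list. In *FVB/N* replicate 3, 36 of the 44 genes were above the mean of their line, against 19 in replicate 1 and 9 in replicate 2. The *P0-3.9GFPCre* pools gave 27, 9 and 36 genes for replicates 1 to 3, whereas the *Le-Cre* pools gave 25, 26 and 20. Of all tested genes, 49.9% to 52.1% were above the mean of their line in each pool. *FVB/N* replicate 3 and *P0-3.9GFPCre* replicate 3 were thus high over most of the list, and *FVB/N* replicate 2 and *P0-3.9GFPCre* replicate 2 were low. The median log2 fold change of the 44 genes in *Le-Cre* was 0.26 without *FVB/N* replicate 3 and 0.12 without *FVB/N* replicate 2.

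**Figure D5:**
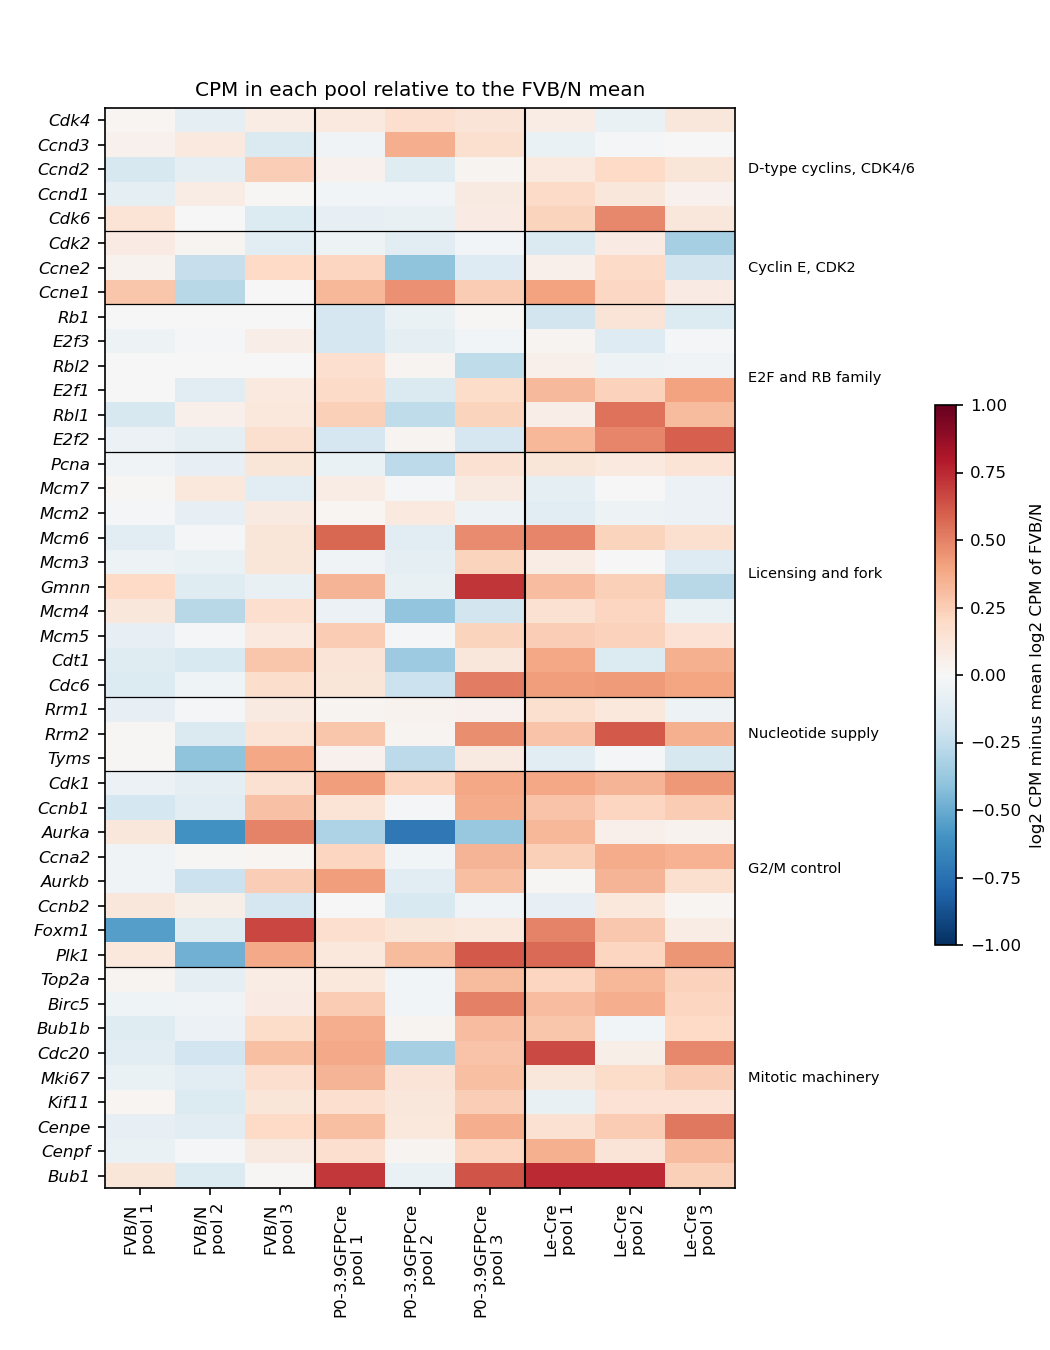
Log2 CPM of the 44 genes in the 9 pools minus the mean of the FVB/N pools, with red for higher and blue for lower values. FVB/N pool 2 and P0-3.9GFPCre pool 2 are pale or blue over most of the list, with 9 of 44 genes above the mean of their line in each, and the lower rows, the mitotic machinery, are mostly red in Le-Cre.

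Markers of other cells and of the sex of the pooled mice were measured beside these values. The summed level of the 6 lens epithelium markers (*Foxe3*, *Pax6*, *Cdh1*, *Gja1*, *Pdgfra*, *Npnt*) was 628 to 646 CPM in the *FVB/N* pools, 543 to 632 in the *P0-3.9GFPCre* pools and 530 to 573 in the *Le-Cre* pools, so it was lower in every *Le-Cre* pool than in any *FVB/N* pool. Its members were uneven. From *FVB/N* to *Le-Cre*, the mean of *Pdgfra* went from 168 to 127 CPM, that of *Cdh1* from 145 to 132 and that of *Npnt* from 81.5 to 73.3. The *P0-3.9GFPCre* means of *Pdgfra*, *Cdh1* and *Npnt* were 138, 136 and 73.3 CPM. These genes were lower in every pool of both Cre lines than in any *FVB/N* pool. Over all genes tested, 7.03% lay below *FVB/N* without overlap in *Le-Cre* and 5.94% in *P0-3.9GFPCre*. The mean of *Pax6* went from 131 to 129.8 CPM, and the pools of *Pax6*, *Foxe3* and *Gja1* overlapped. In the order *FVB/N*, *P0-3.9GFPCre* and *Le-Cre*, the 9 fiber markers summed to 189679 to 198024, 169618 to 199960 and 184271 to 188599 CPM. The 7 endothelial markers, all at or above 1 CPM in some pool of every line, summed to 88.99 to 109.5, 59.7 to 103.1 and 83.6 to 101.9 CPM. The 6 erythroid markers summed to 44.96 to 88.8, 41.6 to 68.9 and 45.3 to 120.1 CPM. The highest sum in any pool was 6.05 CPM for 8 macrophage markers, 10.6 CPM for 8 retinal markers and 19.1 CPM for 8 mesenchymal markers. The 4 Y-linked genes summed to 126 to 193, 1.66 to 135 and 0.633 to 71.8 CPM. The share of males in the pools and the line are therefore partly confounded, and the part of epithelial share and of sex in the differences was not tested beyond the covariate fit.

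Between the Cre lines, 0 of the 44 genes passed the cutoff by edgeR and 0 by DESeq2, and edgeR called 0 of all genes tested (0%). The median log2 fold change of *Le-Cre* against *P0-3.9GFPCre* was 0.06 (all tested genes −0.002), and 29 of 44 were positive, against 7697 of all 15557 genes tested. At an unadjusted p under 0.05, *Cdk6*, *E2f2*, *Mcm4* and *Aurka* were higher in *Le-Cre* (4 of 44, background 3.63%), and 0 genes were lower (background 4.25%). The pools did not overlap for *Ccnd2*, *Cdk6*, *E2f1*, *E2f2* and *Aurka*, all higher in *Le-Cre* (5 of 44, background 6.74%), and 0 genes lay below without overlap (background 7.37%). The number of higher genes at an unadjusted p under 0.05 was 1 without *P0-3.9GFPCre* replicate 2 or with that Y-linked share in the model, 7 without *P0-3.9GFPCre* replicate 3, and 2 without *Le-Cre* replicate 1 or 2. The number of lower genes was 1 without *FVB/N* replicate 3 or *P0-3.9GFPCre* replicate 1. Here too, the counts from these other fits have no background over all genes. The 95% interval lay within 1.5-fold for 35 of the 44 genes.

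In a wider list of 96 further cell cycle genes, a CDK inhibitor was the only gene to pass the cutoff. Of the 94 genes that passed the filter, 1 passed the cutoff in *Le-Cre* against *FVB/N* by edgeR, against 10 of all 15557 genes tested (0.0643%). The wider list was chosen with earlier results of these data known. In this comparison 65 of 94 log2 fold changes were positive, against 7628 of all 15557 genes tested, and the median was 0.10. At an unadjusted p under 0.05, 8 were higher (background 3.6%) and 1 was lower (background 4.35%). *Cdkn1a*, which encodes the CDK inhibitor p21, had 1.19 to 1.28 CPM in the *FVB/N* pools (mean 1.22 ± 0.0526, SD, n = 3) and rose to 11.03 to 11.8 CPM in the *Le-Cre* pools (mean 11.4 ± 0.383). The log2 fold change was 3.21 (SE 0.36, adjusted p = 0.0331 by edgeR). The 3 *P0-3.9GFPCre* pools ranged from 1.5 to 5.74 CPM, all above *FVB/N*, with a log2 fold change of 1.58 (SE 0.37, adjusted p = 0.590 by edgeR). The call in *Le-Cre* was lost, leaving 0 of the wider list past the cutoff, without any single *FVB/N* or *Le-Cre* pool and with that Y-linked share in the model. *Cdkn1c*, p57, was by far more abundant, at 1156 to 1207 CPM in the *FVB/N* pools, 1166 to 1241 in the *P0-3.9GFPCre* pools and 894 to 1088 in the *Le-Cre* pools. Its *Le-Cre* pools lay below all others, with a log2 fold change of −0.24 against *FVB/N* (SE 0.07, adjusted p = 0.439 by edgeR) and −0.26 against *P0-3.9GFPCre* (SE 0.07, adjusted p = 0.429). *Cdkn1b* was at −0.11, and *Cdkn2a* and *Cdkn2b* did not pass the filter, with at most 8 counts in any pool.

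Of the 37 replication genes of the wider list, 28 were positive in *Le-Cre*, with a median of 0.10. At an unadjusted p under 0.05, 3 of the 37 replication genes and 3 of the 36 mitosis genes were higher (background 3.6%). The 3 replication genes are given first. These were *Tk1* (0.43, SE 0.15), the salvage thymidine kinase of S phase, *Pole* (0.33, SE 0.11), the leading strand polymerase, and *Orc2* (0.20, SE 0.08) of the origin recognition complex, with adjusted p of 0.479, 0.4445 and 0.574 by edgeR. Of the 36 mitosis genes, 28 were positive with a median of 0.14, and *Ccnf* (0.79, SE 0.26), *Cdc25c* (0.56, SE 0.23), the phosphatase that activates CDK1, and *Ect2* (0.26, SE 0.11), which drives cytokinesis, were higher at an unadjusted p under 0.05, with adjusted p of 0.467, 0.591 and 0.601 by edgeR. For each of these 6 genes, which were selected by p in the same comparison, the *Le-Cre* and *FVB/N* pools did not overlap. Of all 37 replication genes, 7 lay above *FVB/N* without overlap and 0 below. Of the 36 mitosis genes, 7 lay above and 1 below (background 6.46% above and 7.03% below). Of the 16 E2F and DREAM complex genes, 7 were positive with a median of −0.03, and *E2f8*, a repressor of the E2F family, was at 0.47 (SE 0.20, adjusted p = 0.593 by edgeR). In *P0-3.9GFPCre* against *FVB/N*, 0 of the 94 genes passed the cutoff by edgeR, 63 were positive, against 7780 of all 15557 genes tested, and 8 were higher (background 3.41%) and 2 lower (background 3.41%) at an unadjusted p under 0.05.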

How the data were processed

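Lenses were pooled by line, and polyadenylated RNA was sequenced as single-end reads. Per the labels and the methods of the study, reads were trimmed with Trimmomatic 0.36, aligned to GRCm38 with GSNAP and quantified with RSEM 1.3.0, and the study tested genes with DESeq2 1.10.1. The gene annotation is not given in the sources used here. The authors' tables hold RSEM expected counts without normalization, the TPM values deposited with them, and a posterior standard deviation of the counts, which was at most 1% of the count in every pool for 39 of the 44 genes.

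Expected counts were rounded to whole numbers and tested in R 4.3.3 with edgeR 4.0.16 (TMM, filterByExpr defaults, 1 coefficient per line over 9 pools, glmQLFit and glmQLFTest, Benjamini-Hochberg adjustment over 15557 genes). The SE of a log2 fold change was its size over the square root of F. The study's cutoff (1.5-fold, adjusted p not above 0.05) was used. With 3 pools against 3, an exact permutation test cannot give a two-sided p below 0.1. DESeq2 1.42.0 was an alternative. The fit was tested on simulated data. Total expected counts per pool were 20670968 or more. The SE rests on the spread between pools of a line as well as on the counts, and TPM was only described.

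Positions and shared 51-base sequences came from GENCODE M21 on GRCm38, which matched 47224 gene identifiers, and promoters from RefSeq. Pools were grouped by the line in their titles. The description of *FVB/N* replicate 3 carries another number than its title, and the title was used. Chi-square tests found no library deposited more than once. The 44 genes, their role groups and the wider and marker lists were chosen with earlier results of these data known. Described in full were genes past the cutoff or at an unadjusted p under 0.05 in any comparison, and in each role group the gene with the highest TPM in *FVB/N* and the largest change in *Le-Cre*. From the wider list, genes past the cutoff and up to 3 per sublist with the smallest unadjusted p were named. The text also gives values of further members and of the other CDK inhibitors.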

Additional observations from a re-analysis of the deposited data

How the results depend on the processing

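Of 63 results for single genes named above, 44 kept their sign and their side of the cutoff in all 17 alternatives run for each, and 18 changed sign in at least 1 alternative, none of them larger than 0.17 (log2) as reported. The call counts of the 44 genes remained 0, except for *Aurka* in *Le-Cre* against *P0-3.9GFPCre* without a filter on low counts (log2 fold change 0.60, 1 call). In *P0-3.9GFPCre* against *FVB/N*, DESeq2 left the adjusted p of 39 of the 44 genes NA.

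Over all genes, cutoff calls in *Le-Cre* against *FVB/N*, *P0-3.9GFPCre* against *FVB/N* and *Le-Cre* against *P0-3.9GFPCre* were 49, 2 and 35 by DESeq2 and 131, 93 and 123 without a filter. A mean of at least 10 counts gave 5, only the pools compared gave 31 in the last comparison, and the Y-linked share as a covariate gave 0 in *Le-Cre* against *FVB/N*. Of the wider list, 1 gene passed in *Le-Cre* against *P0-3.9GFPCre* by DESeq2 and without a filter, 1 in *P0-3.9GFPCre* against *FVB/N* without a filter, and 0 in *Le-Cre* against *FVB/N* with the Y-linked covariate. At an unadjusted p under 0.05, 1 of the 44 genes was lower in *Le-Cre* than in *P0-3.9GFPCre* by DESeq2 and without a filter, and in *P0-3.9GFPCre* against *FVB/N* 6 were higher without a filter and 0 lower when only the pools compared were fitted. With the Y-linked covariate 3 were higher in *Le-Cre* than in *FVB/N* and 1 than in *P0-3.9GFPCre*. The counts at an unadjusted p were added after seeing the data. Their share over all genes tested was taken in the main fit only.

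With the Y-linked covariate the log2 fold changes in *Le-Cre* against *FVB/N* turned to −0.0310 for *Cdk4*, 0.00514 for *Cdk2*, 0.0179 for *Rb1*, −0.0441 for *Pcna* and −0.0742 for *Aurka*, those in *P0-3.9GFPCre* to 0.0200 for *Cdk6* and 0.00755 for *Cdk2*, and those between the Cre lines to −0.0132 for *Birc5* and −0.0127 for *Cenpe*. The cause was not tested.

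Leaving out 1 pool gave 0 to 10, 0 to 14 and 0 to 18 calls over all genes in the 3 comparisons, and 0 to 1 of the wider list in both comparisons with *FVB/N*. Of the 44 genes, 4 to 17, 1 to 12 and 1 to 7 were then higher at an unadjusted p under 0.05, with 0 to 2 lower in *P0-3.9GFPCre* against *FVB/N* and 0 to 1 lower between the Cre lines. The median in *Le-Cre* lay between 0.12 and 0.26. Signs turned for *Aurka* (−0.166 to 0.349), *Mcm4* (−0.0327 to 0.176) and *Rb1* (−0.158 to 0.00467) in *Le-Cre* against *FVB/N*. In *P0-3.9GFPCre* they turned for *Cdc6* (−0.0394 to 0.327), *Cdk6* (−0.0912 to 0.0440), *Pcna* (−0.163 to 0.0483) and *Rrm1* (−0.00464 to 0.0808). Between the Cre lines they turned for *Birc5* (−0.0878 to 0.176), *Bub1* (−0.0731 to 0.276), *Cdk1* (−0.0179 to 0.0822), *Cdk2* (−0.170 to 0.0349), *Cenpe* (−0.0572 to 0.136), *Rb1* (−0.0867 to 0.0779) and *Rrm1* (−0.00497 to 0.0979).

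With the replicate number as a block, 2 genes passed the cutoff in *Le-Cre* against *FVB/N*, and 0 of the 44. Residuals of the 9 pairs of pools that share a number correlated by −0.15 to 0.14 (mean 0.03), against a mean of −0.02 for the 18 other pairs. The correlation exceeded 0.1 in 3 of the 9 pairs and in 3 of the 18. Whether pools with the same number also share a batch was not tested, and these correlations cannot decide it.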
